A study of Mus musculus with 18 samples.

Results

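The data described here are the 6 KO and 6 WT libraries of mouse round spermatids (RS), 12 of the 18 libraries of the series, taken by the genotype in their labels. RS are the haploid germ cells that leave meiosis and have not yet begun to elongate. The WT and KO mice were 75 to 85 days old, and the KO mice lack GRTH, the RNA helicase made from Ddx25. The strain is not given in the sources used here. RS were separated from digested testes of both genotypes by sedimentation through albumin, and their total RNA was made into strand-specific libraries without selection for poly(A) tails. The question was which genes, beyond the spermatid mRNAs that the study names, differed between KO and WT RS, which did not, and how they divide by family, level and chromosome.

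GRTH/DDX25 belongs to the DEAD-box helicases, enzymes that unwind or remodel RNA with the energy of ATP. It is made in germ cells and Leydig cells, accompanies selected mRNAs out of the nucleus, and is found in the chromatoid body, the RNA-rich granule of RS, and on polyribosomes. RS are known for storing mRNAs: many proteins of the sperm tail, acrosome and condensed nucleus are made late, from mRNAs transcribed earlier, because transcription stops as the nucleus condenses. Male mice without GRTH have RS but no elongated spermatids.

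Per library, 20606738 to 26776555 fragments were counted on genes in WT and 18766971 to 25654453 in KO. Levels are normalized CPM, the counts of a gene scaled to a common library total with TMM factors. A floor of 3 counts corresponds to 0.112 to 0.160 CPM depending on the library, and covers counting error only. In a principal component analysis of the 500 most variable genes, PC1 held 75.2% of the variance and separated all WT (-26.9 to -21.4) from all KO libraries (19.8 to 32.1), with KO 3 and KO 2 farthest from WT. PC2, with 10.4%, set WT 5 and WT 6 apart from the other WT libraries. The pairs KO 4 with KO 5, WT 1 with WT 2, WT 3 with WT 4, WT 5 with WT 6 were closer to each other than any other pair, and nothing in the labels says which libraries come from separate animals. The p-values therefore measure the spread between these libraries, which may be partly technical. A fit with the members of each close pair summed (3 WT against 5 KO) is given beside calls of named genes that it ends. It is also given beside list counts of higher and lower genes that it moves by over 1.5 times, but not beside list counts of held genes. The mitochondrial genome took 9.94% to 13.5% of the counts in WT and 7.89% to 23.6% in KO, where KO 3 and KO 2 were highest.

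The targeted gene was examined first. Ddx25 (ENSMUSG00000032101, chromosome 9 of GRCm38, 35536647 to 35558528, minus strand) lay between 519 and 604 CPM in WT (median 550) and between 50.3 and 89.0 CPM in KO (median 69.8). No KO library came near a WT library, although counts on the gene remained in every KO library. The log2 fold change was -3.01 (SE 0.144, adjusted p = 7.51e-08 against 1 log2 unit, edgeR). In a fit to all 18 libraries the call past 1 log2 unit was lost at nearly the same fold change (-3.02), and the call by any amount was kept. Within 5 Mb of the gene, 66 others were tested. The change exceeded 1 log2 unit upward in 1 of them and downward in 2, against 0.587% and 1.16% of all genes tested. By any amount 15 (22.7%) were higher and 14 (21.2%) lower, against 18.4% and 15% of all genes tested.

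Of 20089 genes tested, 233 (1.16%) fell in KO beyond 1 log2 unit and 118 (0.587%) rose, at an adjusted p under 0.1 (edgeR's glmTreat). By any amount, 3018 (15%) were lower and 3695 (18.4%) higher (glmQLFTest). These shares are the background for the RIKEN clone lists below. Other lists are made chiefly of protein-coding genes, of which 22.6% were higher, 13.7% lower and 31.4% held (a class defined below). The median log2 fold change over all genes was 0.031. A further class, called held here, had a 95% interval of the log2 fold change wholly between -0.5 and 0.5, and it took in 5242 genes (26.1%). It overlaps the calls by any amount, since a gene with a small change can be both called and held. That left 8259 genes that were neither called nor held, for which these libraries cannot tell a small change from none. In 232 of the 233 genes that were lower by more than 1 log2 unit, every KO library lay below every WT library, and in 117 of the 118 that were higher, every KO library lay above. The exceptions were Zfp990 and Insl3, both described below. Such separation follows largely from the test that chose these genes. Among genes called by any amount, the libraries lay apart in this way for 1293 of the 3018 lower and 1459 of the 3695 higher. When close libraries were summed, 166 genes were lower and 80 higher by more than 1 log2 unit, and 1919 were lower and 2060 higher by any amount.

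The genes that fell and the genes that rose differed in level. The 233 genes that were lower by more than 1 log2 unit together took a median of 4.91% of the normalized counts in WT (3.73% to 5.14%) and 1.06% in KO (0.569% to 1.22%). The 118 that were higher took 0.0136% in WT (0.0117% to 0.0149%) and 0.0641% in KO (0.0505% to 0.0727%). The median member of the first group stood at 43.6 CPM in WT, and the median member of the second at 0.542 CPM in WT and 2.88 CPM in KO. None of the 118 was among the 3 highest deciles of the genes by mean level, and 63 of the 233 were in the highest decile. These levels are a description of genes chosen by their change. Of the 233 genes, 41 are named by the study, and those are left out of the named examples that follow.

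**Figure D1:**
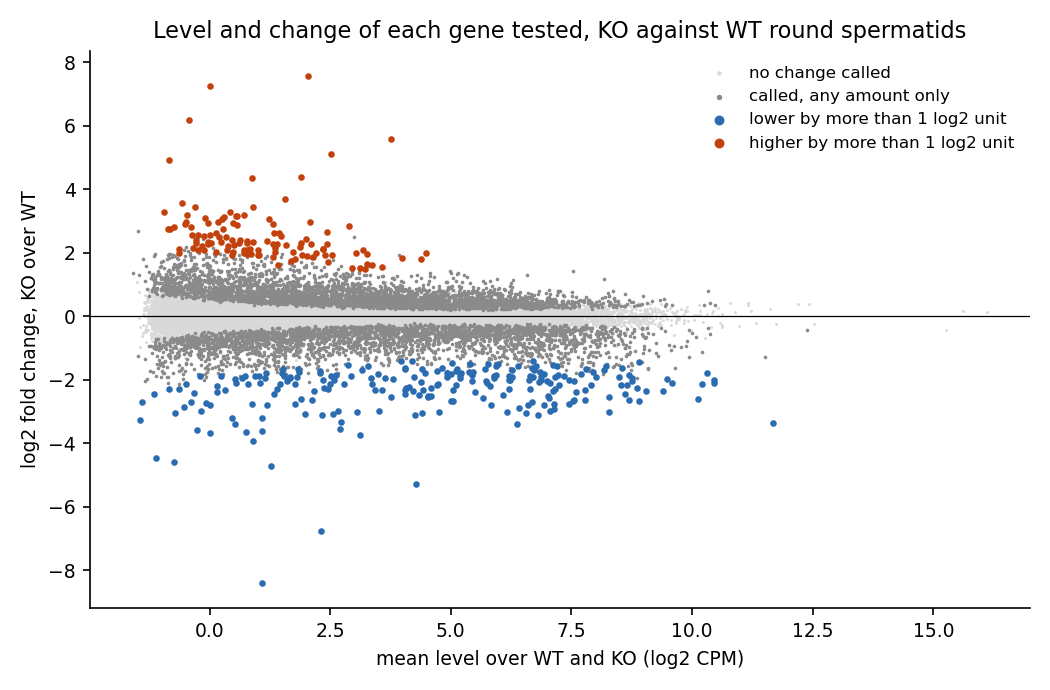
Each point is 1 of the 20089 genes tested, with the mean level over WT and KO on the x axis (log2 CPM) and the log2 fold change of KO over WT on the y axis. The 233 genes lower by more than 1 log2 unit (blue) reach up to the highest levels, whereas the 118 higher genes (red) lie at low and middle levels.

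Call rates also moved with gene length and class. Among protein-coding genes sorted into deciles by exonic length, 27.6% of the shortest decile (up to 1486 bases) were lower in KO and 12.6% higher, and 8.09% of the longest decile (from 9810 bases) were lower and 27.4% higher. The median log2 fold change ran from -0.12 in the shortest decile to 0.14 in the longest. The median log2 level of the longest decile less that of the shortest, a single value per library, lay between 1.34 and 1.81 in WT and between 1.71 and 1.97 in KO, so that the genotypes overlapped (exact permutation test, two-sided, n = 6 against 6, p = 0.0303, adjusted p = 0.136 over 9 measures). Genes with over 20 exons were higher in 30.8% of cases and lower in 6.76%. By class, 22.6% of 14208 protein-coding genes were higher and 13.7% lower, while 25.8% of 1663 lincRNA genes and 25.1% of 1055 antisense genes were lower and 10.2% and 8.53% higher. The part that length has in the gene families described below was not tested. Median lengths are given beside some lists made of short genes, and the median over all protein-coding genes tested was 4213 bases.

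**Figure D2:**
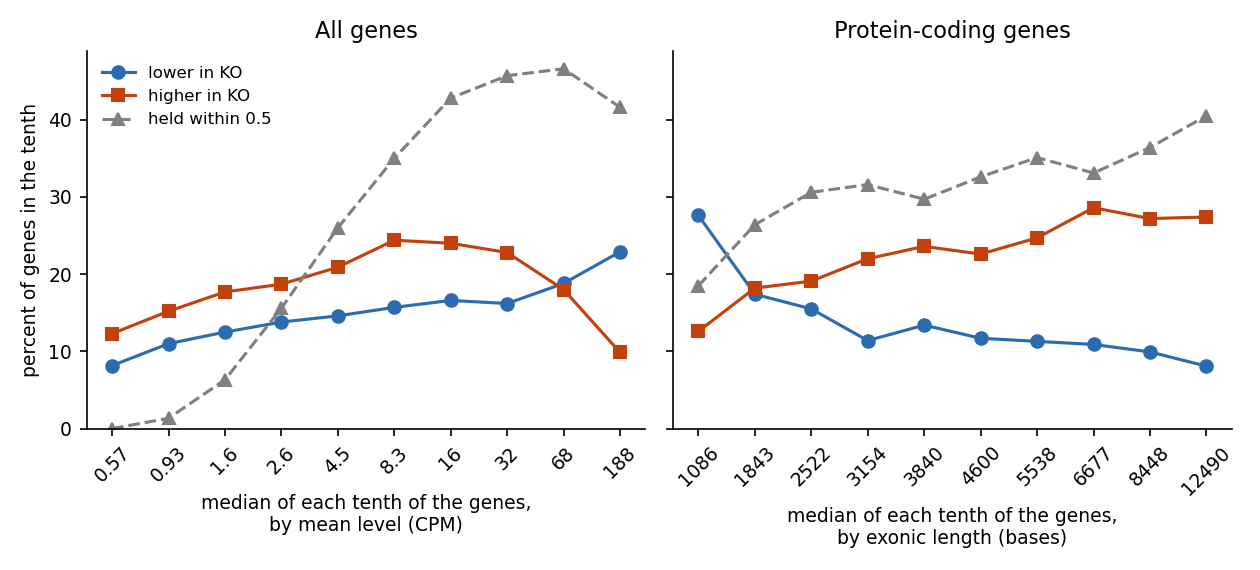
The left panel sorts all tested genes into deciles by mean level and the right panel sorts protein-coding genes into deciles by exonic length, with the median of each decile on the x axis. The y axis gives the percentage of each decile that was lower in KO by any amount, higher, or held within 0.5 log2 unit, and the lines for lower and higher cross in both panels.

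The cell type was checked with lists of marker genes. The 16 markers of RS (among them Dpy19l2 and Actl7b, the second a gene of the perinuclear theca) were all tested. Of these, 1 (Catsper3) was lower in KO, 4 were held and 11 were neither called nor held. Their summed level lay between 2280 and 3050 CPM in WT and between 1930 and 3140 CPM in KO, and the genotypes overlapped. Of 17 genes typical of elongating spermatids that the study does not name, 13 were lower, 0 were higher, and the median log2 fold change was -0.75. The median length was 1435 bases for these genes and 1582 bases for the RS markers. Odf2, a main protein of the outer dense fibres, fell by 1.28 on the log2 scale, with 3210 to 5480 CPM in WT and 795 to 3540 CPM in KO. One KO library, KO 1, lay within the WT range for this gene. Lelp1 fell by 1.62, from 93.0 to 122 CPM in WT to 16.3 to 49.8 CPM in KO, with no overlap. Tssk2, a kinase of late spermatids, fell by 1.16 and Spata20 by 1.15, again with no overlap. In bulk RNA such as this, fewer cells of a type and less RNA per cell cannot be told apart.

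Lists of earlier germ cell markers had more members higher than lower. Of 14 spermatogonial genes tested, 9 were higher in KO and 0 lower, with a median log2 fold change of 0.60. Stra8, which is switched on at the entry into meiosis, lay between 3.58 and 4.88 CPM in WT and between 5.62 and 13.4 CPM in KO, without overlap. Ccnd2, a cyclin of dividing spermatogonia, lay between 0.551 and 1.02 CPM in WT and between 1.0 and 2.66 CPM in KO. The summed level of the list was 63.7 to 78.7 CPM in WT and 73.2 to 119 CPM in KO, with KO 2 and KO 3 highest. Without KO 2 and KO 3, 6 of the 14 were higher, and with close libraries summed 3 were. Of 19 markers of pachytene spermatocytes, 7 were higher and 2 lower (4 and 1 with close libraries summed), and 6 were held. The median log2 fold change of this list was 0.135. Its summed level overlapped, at 1810 to 2200 CPM in WT and 2060 to 2690 CPM in KO. Hist1h1t, the testis linker histone that appears in pachytene cells, rose by 1.44 on the log2 scale, from 59.4 to 151 CPM in WT to 203 to 372 CPM in KO. Pou5f2 rose by 1.27 and Dmc1, the meiotic recombinase, by 0.82. Syce2, of the central element of the synaptonemal complex, fell by 1.14, and Sycp2, of its lateral element, was held at 361 to 581 CPM in WT and 366 to 603 CPM in KO.

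Among somatic cell lists, Leydig cell genes moved most. Of 8 tested, 7 were higher in KO, 3 of them by more than 1 log2 unit, with a median log2 fold change of 1.90. Their summed level lay between 11.9 and 23.8 CPM in WT and between 34.3 and 61.1 CPM in KO, so the genotypes did not overlap. Cyp17a1, an enzyme of androgen synthesis, lay between 2.24 and 6.61 CPM in WT (median 2.77) and between 9.18 and 21.6 CPM in KO (median 15). Cyp11a1, which makes pregnenolone from cholesterol, rose by 2.25 and Insl3, a Leydig cell hormone, by 1.94. The KO libraries overlapped WT for Insl3 (1.47 to 3.77 CPM against 3.55 to 11.5 CPM). The call past 1 log2 unit was lost for Insl3 when any 1 of 9 libraries was left out (all but WT 6, KO 1 and KO 3, with 1.83 to 1.96), and for Cyp11a1 when any 1 of 7 was (WT 1 to WT 5, KO 2 and KO 4, with 2.03 to 2.23). With close libraries summed that call was lost for Cyp17a1, Cyp11a1 and Insl3, and each stayed higher by any amount. The collagenase step of the isolation was meant to take Leydig cells away.

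The other somatic lists gave mixed counts. Of 10 macrophage markers, 5 were higher and 1 (C1qb) lower, with summed levels of 10.9 to 17 CPM in WT and 11.8 to 25.1 CPM in KO. Without KO 2 and KO 3, and likewise with close libraries summed, 1 was higher and 1 lower. Of 12 Sertoli cell markers, 1 was higher and 3 lower, with sums of 108 to 167 CPM in WT and 133 to 211 CPM in KO. With close libraries summed 0 of the 12 were called by edgeR, and without KO 2 and KO 3, 2 were higher and 5 lower. Of 7 endothelial and peritubular markers, 2 were higher, among them Vwf (9.0 to 12.3 CPM in WT and 13.3 to 23.7 CPM in KO), and 1 was lower. Of the 2 erythrocyte markers tested, Alas2 was lower, from 1.06 to 2.12 CPM in WT to 0.267 to 0.800 CPM in KO. The part that other cells have in the gene groups described below was not tested.

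**Figure D3:**
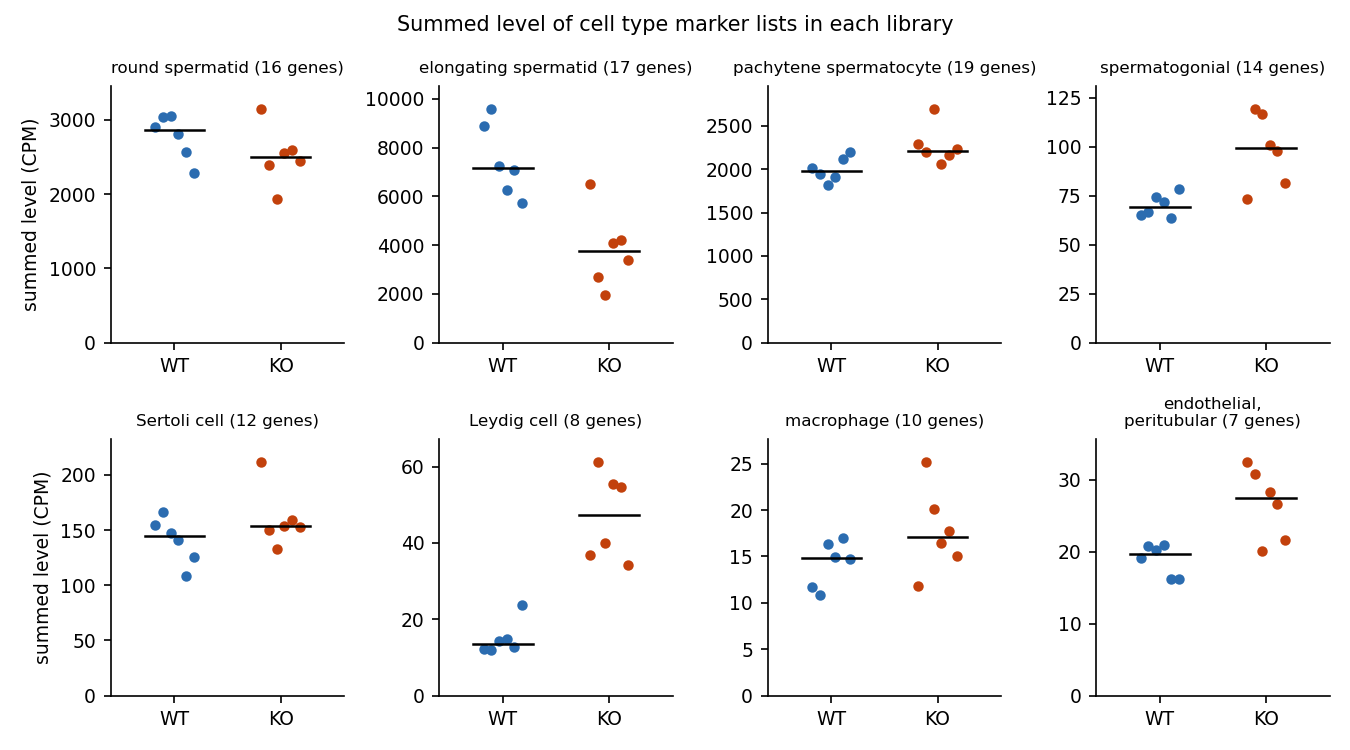
The summed level in CPM of each marker list is plotted for the 6 WT (blue) and 6 KO (red) libraries, with a line at the median of each genotype. The Leydig cell list is the one in which WT (up to 23.8 CPM) and KO (from 34.3 CPM) do not overlap, and the elongating spermatid list is lower in KO with 1 library, at 6500 CPM, inside the WT range.

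Among protein-coding genes lower by more than 1 log2 unit, those with the most counts in WT and not named by the study had varied roles. Gsg1 (ENSMUSG00000030206, chromosome 6), whose protein binds the testis poly(A) polymerase, lay between 966 and 1500 CPM in WT (median 1250) and between 145 and 362 CPM in KO (median 306). No library of one genotype reached the other, and the log2 fold change was -2.10 (SE 0.196, adjusted p = 0.00138 against 1 log2 unit, edgeR). Dbil5, a testis relative of the acyl-CoA binding protein, lay between 910 and 1270 CPM in WT and between 121 and 394 CPM in KO. Reep6, which shapes the endoplasmic reticulum, fell by 2.65 on the log2 scale, the largest fall of these genes, from 635 to 990 CPM in WT to 50.1 to 209 CPM in KO. Atl3, which joins tubules of the same compartment, fell by 2.17, from 477 to 716 CPM to 84.8 to 168 CPM.

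Ccdc91, of Golgi vesicles, fell by 2.04 and Arl4a, a small GTPase, by 1.42. Eef1d, a subunit of the factor that recharges elongation factor 1A, fell by 1.92, from 519 to 777 CPM in WT to 69.2 to 320 CPM in KO. Hspa1l, an HSP70 of spermatids, fell by 1.91. Mex3d, an RNA-binding protein, fell by 1.63. Rangap1, which turns over the GTPase Ran in transport through the nuclear pore, fell by 1.57, from 368 to 500 CPM to 103 to 180 CPM. The KO libraries lay below the WT libraries for all of these. The call past 1 log2 unit was not firm for 5 of them, which stayed lower by any amount throughout. It was lost for Arl4a without any 1 of WT 1 to WT 5, KO 2, KO 4 or KO 5 (-1.44 to -1.40) and for Eef1d without any 1 of WT 1 to WT 5, KO 2, KO 4 or KO 6 (-1.96 to -1.83). It was lost for Ccdc91 (-2.04 to -1.91) and Mex3d (-1.64 to -1.59) without any 1 of WT 1, WT 2, WT 3, WT 5, KO 2 or KO 6, and for Hspa1l without any 1 of the same libraries other than WT 5 (-1.92 to -1.84). With close libraries summed, those 5, Dbil5 (-2.05) and Rangap1 (-1.62) lost that call and stayed lower by any amount.

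The protein-coding genes that were higher by more than 1 log2 unit and took the most counts in KO stood far lower in level. Plekhg2 (ENSMUSG00000037552, chromosome 7) lay between 6.44 and 10.5 CPM in WT (median 9.21) and between 20.9 and 42.8 CPM in KO (median 38.7). Its log2 fold change was 2.0 (SE 0.170, adjusted p = 0.000993 against 1 log2 unit, edgeR). Yipf6, a Golgi membrane protein encoded on the X chromosome, lay between 8.07 and 10.8 CPM in WT and between 25.7 and 37.9 CPM in KO. Angptl2, a secreted glycoprotein, rose by 2.85, from 1.26 to 2.72 CPM to 9.80 to 16.7 CPM. Tarsl2, a relative of threonyl-tRNA synthetase, rose by 1.84, and Kcnh8, a potassium channel, by 1.64. Otud6a, a deubiquitinase encoded on the X chromosome, rose by 1.97, and Tex13c2, also on the X chromosome, by 1.56. Maoa, the X-linked amine oxidase, rose by 1.49, Adgra3, an adhesion receptor that marks spermatogonial cells, by 1.52, and Nr4a3, a nuclear receptor, by 1.51.

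For each of these genes every KO library lay above every WT library. The call past 1 log2 unit was lost for Maoa without any 1 of WT 1, WT 2, WT 5, WT 6, KO 2, KO 4 or KO 5 (1.43 to 1.48), for Nr4a3 without any 1 of WT 1, WT 4, WT 5, WT 6, KO 1, KO 2, KO 4 or KO 5 (1.46 to 1.52), and for Adgra3 without WT 5 (1.48). With close libraries summed, Tarsl2 (1.77), Tex13c2 (1.56), Kcnh8 (1.59), Maoa (1.47), Adgra3 (1.5) and Nr4a3 (1.48) lost it too. All remained higher by any amount in each of these fits.

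**Figure D4:**
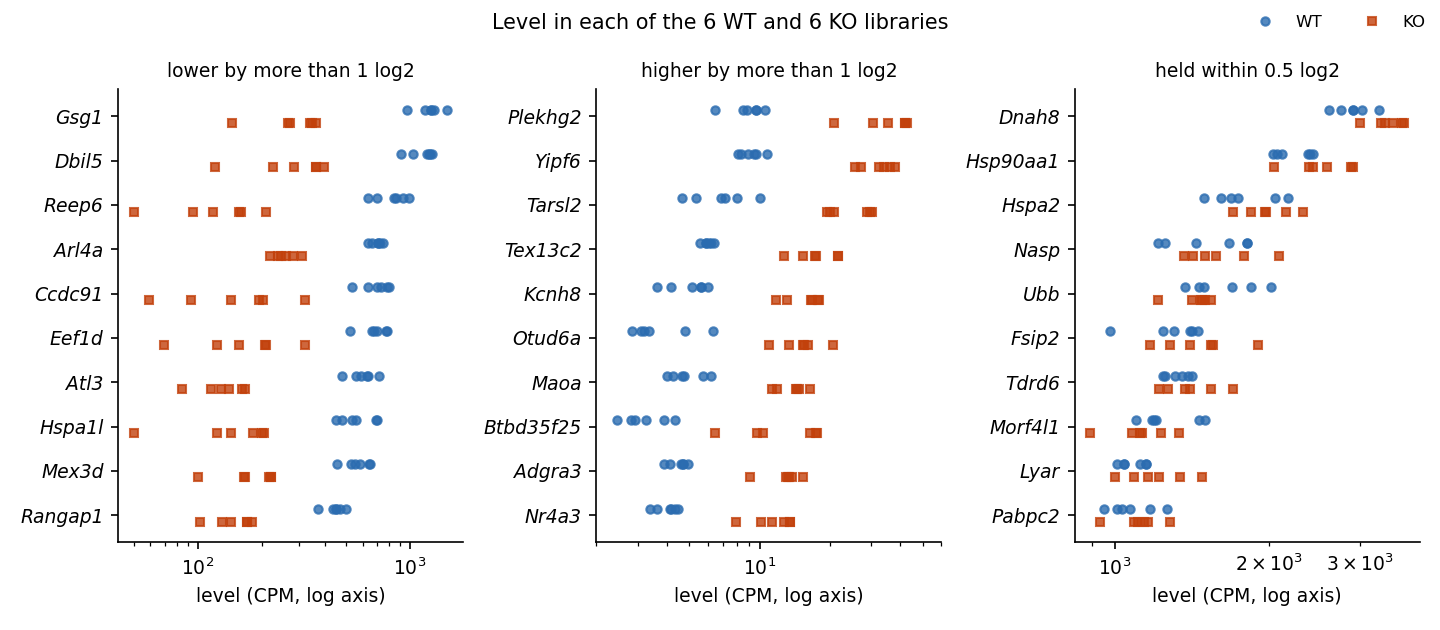
Each row is 1 gene and each point is 1 library, WT in blue circles and KO in red squares, with the level in CPM on a log axis. The left panel shows genes lower by more than 1 log2 unit, the middle panel genes higher by more than 1 log2 unit and the right panel held genes, for which the libraries of the genotypes interleave.

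The X chromosome stood apart from the autosomes in the share of its genes that rose. Of 665 X-linked genes tested, 213 (32.0%) were higher in KO by any amount and 107 (16.1%) lower, with a median log2 fold change of 0.18. On the autosomes, 18.1% of 19241 genes were higher and 15% lower. Between 14.4% and 21.9% of the genes of any 1 autosome were higher. Only 57 X-linked genes (8.57%) were held, against 26.9% on the autosomes. The X-linked genes were at a low level, with a median of 2.7 CPM in WT. The share of all counts on the X chromosome went the other way, at 0.771% to 1.01% in WT and 0.553% to 0.869% in KO, and the difference did not pass the test (exact permutation test, two-sided, n = 6 against 6, p = 0.0563, adjusted p = 0.169). On the Y chromosome 4 of 162 genes were higher and 21 lower.

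One X-linked family accounted for 18 of the 213. Btbd35f genes are multicopy genes with a BTB domain in several clusters on the X chromosome, and they were picked out here after their values were seen. The table holds 30 members, and 18 passed the filter on low counts. Of the 18, 9 did not reach the level the filter asks for (0.442 CPM) in every WT library, and so entered through their KO libraries. All 18 were higher in KO, 7 of them by more than 1 log2 unit, a count that the filter favours and that is given only as a description. The other 9 had log2 fold changes of 1.34 to 2.30. The summed level of the 18 lay between 15.2 and 21.4 CPM in WT (median 19.8) and between 35.5 and 91.5 CPM in KO (median 73.6). For 16 of the 18, every KO library lay above every WT library, which is likewise only a description of genes chosen by their values. Btbd35f25, with the most counts, lay between 2.44 and 4.33 CPM in WT and between 6.45 and 17.6 CPM in KO, and its call past 1 log2 unit was lost with close libraries summed (1.88). Without the family, 30.1% of the remaining 647 X-linked genes were higher. The copies are so alike that counts may be split between them, and the members are therefore not independent of each other.

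That likeness shows in the sequence before the genes. RefSeq gives a start for 7 of the 18. The 250 bases before the start of Btbd35f22 (GRCm38.p6, chrX:32047491-32047740, plus strand) and of Btbd35f21 (chrX:32725887-32726136, plus strand) are printed 5′ to 3′, with capitals marking the longest run that both hold, 219 bases long.
Btbd35f22: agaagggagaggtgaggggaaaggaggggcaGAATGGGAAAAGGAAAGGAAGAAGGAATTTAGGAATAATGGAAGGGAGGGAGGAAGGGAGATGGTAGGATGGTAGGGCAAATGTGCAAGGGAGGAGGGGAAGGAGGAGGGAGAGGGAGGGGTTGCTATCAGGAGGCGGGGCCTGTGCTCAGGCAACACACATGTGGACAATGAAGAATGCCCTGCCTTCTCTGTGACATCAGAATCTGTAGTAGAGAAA
Btbd35f21: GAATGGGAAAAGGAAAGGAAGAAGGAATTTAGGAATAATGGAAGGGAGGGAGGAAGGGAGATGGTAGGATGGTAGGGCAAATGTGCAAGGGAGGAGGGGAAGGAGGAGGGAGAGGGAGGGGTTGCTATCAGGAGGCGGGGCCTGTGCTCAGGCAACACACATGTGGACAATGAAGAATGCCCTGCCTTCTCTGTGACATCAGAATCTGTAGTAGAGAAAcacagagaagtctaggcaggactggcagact
Btbd35f22 stood at 1.26 CPM in WT and 6.17 CPM in KO on average, and Btbd35f21 at 1.32 CPM and 6.05 CPM.

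Promoters of the genes that fell and rose were compared for base composition. Of the 14208 protein-coding genes tested, 11054 had 1 promoter in the RefSeq table. In the 250 bases before the start, the median GC content was 56.4% for the 1498 genes that were lower by any amount, 61.2% for the 2526 that were higher and 59.2% for all 11054. The letters GGCGGG, the GC box, were searched on both strands and were present in 44.7% of the promoters of genes that were lower, 61.4% of those higher and 54.1% of all of them. Over all 27025 promoters in the table the share was 32.6%. The letters TGACGTCA, the full CRE palindrome that CREM binds, were present in 3.47%, 2.49% and 2.65% of the same groups and in 1.62% of all promoters. Among genes lower by more than 1 log2 unit, 2 of 129 held the CRE and 58 held a GC box. Among genes higher by more than 1 log2 unit, 0 of 67 held the CRE and 35 (52.2%) held a GC box. That GC box share lay below the 54.1% of all 11054, unlike the share of genes higher by any amount. The promoters of 3564 genes of the held class had a GC box in 57.3%, the CRE in 3.03% and a median GC content of 59.8%. These are counts of letters in a window, and say nothing of binding.

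The windows of the highest named genes of each direction are shown with the GC box in capitals, on the minus strand of GRCm38.p6 (Gsg1 chr6:135254337-135254586, Plekhg2 chr7:28372663-28372912).
Gsg1: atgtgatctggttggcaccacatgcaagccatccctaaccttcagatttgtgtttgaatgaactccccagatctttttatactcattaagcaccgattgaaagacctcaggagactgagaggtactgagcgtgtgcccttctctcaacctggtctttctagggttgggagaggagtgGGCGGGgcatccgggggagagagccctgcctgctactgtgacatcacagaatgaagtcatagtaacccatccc
Plekhg2: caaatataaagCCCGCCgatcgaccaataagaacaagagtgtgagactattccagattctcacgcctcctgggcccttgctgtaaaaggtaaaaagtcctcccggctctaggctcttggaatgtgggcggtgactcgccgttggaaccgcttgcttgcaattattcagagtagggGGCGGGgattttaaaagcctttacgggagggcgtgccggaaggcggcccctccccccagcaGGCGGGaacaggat
The Gsg1 window holds 1 GC box and 50.8% GC, and the Plekhg2 window holds 3 and 55.6%.

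Families of the sperm tail divided. Of 22 axonemal dyneins, 16 were held, 4 were higher (2 with close libraries summed) and 0 lower, and Dnah8, with the most counts, lay between 2610 and 3270 CPM in WT and between 3000 and 3660 CPM in KO. Dnah11 was the furthest from no change, at 1.43 to 2.34 CPM in WT and 4.12 to 7.23 CPM in KO. Of 31 Cfap proteins of cilia and flagella, 21 were held, 2 higher and 3 lower (1 and 1 with close libraries summed, 4 and 2 with total counts as the scale). Of 14 genes of the radial spokes and the nexin-dynein regulatory complex, 6 were held and 4 higher, and none of the 4 was called by edgeR with close libraries summed. Of 24 genes of intraflagellar transport and the BBSome, 14 were held. Within that list Ift46 rose by 1.29 (50.5 to 65.5 CPM in WT, 116 to 171 CPM in KO) while Ift57, of the same carrier complex, fell by 0.90 (107 to 135 CPM, 56.9 to 73.7 CPM), each without overlap.

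Families of the sperm head and surface had more members lower than higher, although for the Adam genes the median turned from -0.02 to 0.088 with total counts as the scale. Of 29 actin-like and Arp proteins, 10 were lower and 3 higher (8 and 1 with close libraries summed). Actl11 fell by 1.78, from 229 to 381 CPM in WT to 26.6 to 143 CPM in KO, and Actl9 fell by 1.14. Of 30 Adam metalloproteases, surface proteins of which some act in sperm and egg contact, 9 were lower and 4 higher (5 and 1 with close libraries summed). Adam39 fell by 2.25, from 30.9 to 50.1 CPM to 6.50 to 13.1 CPM, and Adam25 by 1.89 (a call past 1 log2 unit that was lost with close libraries summed, at -1.94), whereas Adam5, with the most counts, lay between 601 and 1120 CPM in WT and between 423 and 1280 CPM in KO. Of 12 subunits of the Catsper calcium channel, 4 were lower, 5 held and 0 higher. The kinesins, a motor family counted apart from these, went the other way. Of 41 kinesins, 11 were higher and 5 lower (6 and 4 with close libraries summed). Kif17, which moves with the chromatoid body, fell by 1.46, with 262 to 494 CPM in WT and 33.2 to 323 CPM in KO. Kif1a fell by 1.96, from 17.6 to 27.8 CPM to 3.20 to 7.20 CPM.

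Genes known by testis names or clone numbers were often lower. Of 29 Spata genes (spermatogenesis associated), 14 were lower (48.3%) and 1 higher, with a median log2 fold change of -0.35. The Spata counts were 9 and 0 with close libraries summed and 10 and 2 without KO 2 and KO 3. Of 466 genes named by 1700 RIKEN clones, which come from adult testis cDNA, 210 (45.1%) were lower and 21 (4.51%) higher (143 and 10 with close libraries summed), with a median of -0.37 and a median length of 884.5 bases. Of 703 genes named by a further set of testis clones, such as 4933424L21Rik, 213 (30.3%) were lower and 77 (11%) higher (134 and 34 with close libraries summed). Their median length was 1386 bases. Of 628 genes named by other RIKEN clones, 99 (15.8%) were lower and 63 higher (61 and 31 with close libraries summed), and the direction turned to 81 lower and 101 higher with total counts as the scale. The 1700 list held RNAs of every course: 1700010I14Rik, with the most counts, was held at 734 to 901 CPM in WT and 613 to 974 CPM in KO. 1700063D05Rik, a lincRNA on chromosome 9 (41192446 to 41217990), lay between 7.91 and 11.7 CPM in WT and at or below 0.208 CPM in each KO library. Its log2 fold change was -6.75, and it lies on the chromosome of Ddx25, just outside the 5 Mb counted around that gene.

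Among antisense, pseudogene and other non-coding genes, Wbscr25, an antisense gene on chromosome 5, lay between 164 and 336 CPM in WT and between 14.4 and 64.1 CPM in KO. Gm5893, a processed transcript on chromosome 7, lay between 117 and 190 CPM in WT and between 6.20 and 19.9 CPM in KO, a log2 fold change of -3.40. 1700027A15Rik fell by 2.68 and 1700031M16Rik by 1.91, the second without a call past 1 log2 unit when KO 2 was left out (-1.86) or when close libraries were summed (-1.99). Of the non-coding genes that were higher by more than 1 log2 unit, Gm15459, a processed pseudogene on chromosome 5 (5781615 to 5783555), took the most counts in KO, with 0.230 to 0.793 CPM in WT and 21.4 to 33.1 CPM in KO. Its log2 fold change was 5.60 (SE 0.226, adjusted p = 1.12e-09 against 1 log2 unit, edgeR). A pseudogene shares sequence with its parent gene, so its counts are uncertain. Olfr1372-ps1 rose by 2.13 and 4933424L21Rik by 1.65, the second without a call past 1 log2 unit with close libraries summed (1.58).

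Metabolic families moved in different directions. Of 34 genes of glycolysis, 9 were lower and 4 higher. Hk1, the first enzyme of the pathway, fell by 1.62, with 864 to 1670 CPM in WT and 135 to 824 CPM in KO. Gpi1, the next enzyme, fell by 1.81, from 258 to 366 CPM to 61.2 to 110 CPM, and Pkm, the last one, by 1.43, from 157 to 198 CPM to 48.1 to 80.6 CPM. Slc2a3, a glucose transporter, rose by 0.80, from 617 to 1150 CPM in WT to 1150 to 1970 CPM in KO. Ldhc, the lactate dehydrogenase of germ cells, lay between 2030 and 2540 CPM in WT and between 1240 and 2080 CPM in KO, with no call.

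Of 89 nuclear genes of oxidative phosphorylation, 0 were higher, 21 lower and 45 held, with a median of -0.11. With total counts as the scale, 10 were higher and 13 lower and the median turned to 0.004. Atp5mpl fell by 0.93, and Uqcrc1 and Atp5b, with the most counts, were held. The list has a median length of 1701 bases, and 8 of its genes were lower with close libraries summed. Of 13 proteins encoded by the mitochondrial genome, 1 (mt-Nd6) was higher and 0 were held. Their median was 0.31, and 0.001 without KO 2 and KO 3, and mt-Nd6 lost its call without WT 3 (0.47), KO 2 (0.39) or KO 3 (0.34) and with close libraries summed (0.55).

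Of 20 genes of fatty acid synthesis and desaturation, 9 were higher and 3 lower (6 and 3 with close libraries summed). Scd1, which puts the first double bond into saturated fatty acids, rose by 1.96, from 0.235 to 0.793 CPM in WT to 0.908 to 2.28 CPM in KO, and Fads1 by 1.2. The members that fell stood at higher levels, as Acsl1, which activates long-chain fatty acids, fell by 1.35 from 398 to 690 CPM to 66.6 to 345 CPM, and Acsbg2, a testis form of that enzyme, by 1.47. Of 20 genes of fatty acid oxidation and ketone bodies, 4 were higher and 3 lower (2 and 3 with close libraries summed). Oxct2a, a testis enzyme that uses ketone bodies, fell by 2.09, from 169 to 274 CPM to 35.7 to 62.2 CPM. Gpx4, the peroxidase that becomes a structural protein of the sperm midpiece, fell by 1.06, from 834 to 1270 CPM to 332 to 545 CPM, and Gstm5, a glutathione transferase, by 0.92. Gstm1, of the same transferase class, rose by 1.26 at a lower level, from 5.06 to 7.85 CPM to 11 to 22.5 CPM.

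Protein turnover gave falls in particular members. Of 35 Ube2 conjugating enzymes, 10 were lower and 3 higher (8 and 3 with close libraries summed, 9 and 10 with total counts as the scale). Ube2j1, which acts at the endoplasmic reticulum, fell by 1.28, from 295 to 439 CPM in WT to 75.3 to 212 CPM in KO, and Ube2n, which builds lysine-63 chains, fell by 1.12. Ube2c, which acts with the anaphase-promoting complex in dividing cells, rose by 1.22, from 14.5 to 24.1 CPM to 39.5 to 62.3 CPM. Of 42 proteasome subunits, 10 were lower, 6 higher and 18 held. The direction of these counts depends on the fit, with 6 lower and 1 higher with close libraries summed, and 7 lower and 11 higher with total counts as the scale. Psmd10, an assembly chaperone encoded on the X chromosome, fell by 1.44, Psma6, of the core ring, by 1.11 and Psmf1, an inhibitor, by 1.1, while Psmc3, with the most counts, was held (730 to 1030 CPM in WT, 659 to 892 CPM in KO). Of 48 Usp deubiquitinases, 11 were higher and 2 lower (5 and 2 with close libraries summed).

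Of 45 DnaJ chaperones, 13 were lower and 10 higher (7 and 6 with close libraries summed, 11 and 12 with total counts as the scale), and Dnajb8 fell by 2.17, from 186 to 279 CPM in WT to 21.8 to 72.5 CPM in KO. Of 18 genes of the unfolded protein and integrated stress responses, 8 were higher and 3 lower (4 and 2 with close libraries summed). Edem1, which takes misfolded proteins out of the endoplasmic reticulum, rose by 1.27, from 5.68 to 8.44 CPM to 12.7 to 25.1 CPM. Herpud1, a partner of the same route and a usual target of the response, fell by 1.62, from 137 to 180 CPM to 38.0 to 58.4 CPM, and lost its call past 1 log2 unit with close libraries summed (-1.64). Members of 1 list thus moved in opposite directions. Hsp90b1, the HSP90 of the endoplasmic reticulum, rose by 0.49, a call lost with close libraries summed (0.48). Of 12 interferon response genes, 0 were called in either direction by edgeR, with or without close libraries summed, and 4 were held.

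Many genes of the RNA and translation machinery were held, by shares that differed between lists. Over all genes 26.1% were held, and over protein-coding genes 31.4%, a share that depends on level. Among all genes it was 0% in the lowest decile by mean level, 41.6% in the highest and 46.6% in the decile below that. With close libraries summed 2387 genes were held in all, and held counts of single lists were not made in that fit. Of 31 SR proteins and hnRNPs, 25 (80.6%) were held, 5 were higher and 1 lower, where a gene can be both held and called. None of these 6 calls was made by edgeR with close libraries summed. Of 81 cytosolic ribosomal proteins, 49 (60.5%) were held, 13 lower and 6 higher (4 and 3 with close libraries summed, 7 and 8 with total counts as the scale), with a median length of 1770 bases. Rplp0, with the most counts, was held at 391 to 480 CPM in WT and 286 to 436 CPM in KO, and Rpl41 fell by 0.77 and Rps20 by 0.73. Of 53 DEAD-box and DEAH-box helicases, the family of the targeted gene, 30 were held, 13 higher and 2 lower (8 and 1 with close libraries summed), 1 of the 2 being Ddx25 itself. Ddx4, the germ cell helicase of the chromatoid body, was held at 757 to 1010 CPM in WT and 727 to 954 CPM in KO. Ddx3x, encoded on the X chromosome, rose by 1.27, from 4.65 to 8.46 CPM to 11.2 to 23.2 CPM. Of 23 genes of the chromatoid body and piRNA pathway, 12 were held, 7 higher and 2 lower (2 and 1 with close libraries summed). Of 49 core spliceosome genes, 19 (38.8%) were held, 16 higher and 4 lower (10 and 2 with close libraries summed).

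Of 53 translation initiation factors, 24 were held, 8 higher and 9 lower (6 and 5 with close libraries summed, 13 and 7 with total counts as the scale). Eif4e, which binds the mRNA cap, lay between 194 and 250 CPM in WT and between 83.1 and 96.1 CPM in KO, without overlap. Eif4h, a cofactor of the helicase that acts beside it, fell by 1.13, and Eif1ax, an X-linked factor of start-site choice, by 1.16. Eif3c was held at 483 to 586 CPM in WT and 364 to 688 CPM in KO. Of 20 tRNA synthetases, 9 were higher and 1 lower, with a median of 0.24 (2 and 1 with close libraries summed). The lower one, Vars, which charges tRNA with valine, fell by 1.13, with a median of 343 CPM in WT and 169 CPM in KO and no overlap. Pabpc1, the poly(A)-binding protein, lay between 1510 and 2430 CPM in WT and between 1690 and 3580 CPM in KO with no call (adjusted p = 0.105, edgeR), and passed without any 1 of WT 1 (0.47), WT 2 (0.49) or KO 3 (0.52). Ybx2, which keeps stored mRNAs silent, lay between 1220 and 1840 CPM and between 747 and 1700 CPM, with no call, and passed as lower without KO 1 (-0.46). Kpnb1, the import receptor importin beta, rose by 0.82, from 87.0 to 136 CPM in WT to 165 to 222 CPM in KO.

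Lists of transcription factors differed in direction. Of 319 Zfp zinc finger genes, 89 (27.9%) were higher and 18 (5.64%) lower (43 and 7 with close libraries summed), with a median of 0.18 against 0.083 for all protein-coding genes. Zfp7 rose by 2.15, from 0.460 to 1.33 CPM in WT to 2.0 to 5.60 CPM in KO. Zfp706 fell by 1.5, from 52.7 to 69.4 CPM to 17.9 to 25.2 CPM. Both lost the call past 1 log2 unit with close libraries summed (2.13 and -1.51). Zfp990 had the largest fitted fall of the list, but its WT libraries disagreed, with 117 CPM in WT 5, 106 CPM in WT 6 and 0.945 to 1.30 CPM in the other 4, against 0.333 to 1.66 CPM in KO. Its call rests on WT 5 and WT 6, and was lost when either was left out (-4.49 and -4.62) or any 1 of KO 2 to KO 6 (-5.39 to -5.08).

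Of 50 replication-dependent histone genes tested, whose mRNAs lack poly(A) tails and can be seen in total RNA, 22 were higher and 3 lower, with a median of 0.62. Their median length was 536.5 bases. Hist1h2ba, a testis histone, rose by 1.05, from 39.1 to 61.4 CPM to 73.4 to 150 CPM. The count fell to 7 higher and 2 lower without KO 2 and KO 3 (median 0.34) and to 8 and 2 with close libraries summed. Of 28 transcription factors known in the testis, 8 were lower and 4 higher (5 and 3 with close libraries summed, 6 and 6 with total counts as the scale). Spz1 fell by 1.93, with a median of 680 CPM in WT and 190 CPM in KO and no overlap. Crem, the activator of many spermatid promoters, fell by 0.60, from 296 to 451 CPM to 215 to 266 CPM, without overlap. Of 21 homeobox genes of the Rhox, Hox and Lhx families and their relatives, 9 were lower and 3 higher, with a median of -0.54.

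Signalling lists also differed. Of 29 genes of the Wnt, Fzd and Notch pathways, 12 were higher and 4 lower (8 and 4 with close libraries summed), with a median level of 1.82 CPM in WT. Fzd9, a Wnt receptor, rose by 2.30, from 0.370 to 0.800 CPM in WT to 1.76 to 4.10 CPM in KO, and Notch1 by 1.76. Wnt3, a ligand, fell by 2.96, from 17 to 23.3 CPM to 1.49 to 3.08 CPM. Of 43 Tgfb, Bmp and Fgf ligands and receptors, 18 were higher and 6 lower (11 and 4 with close libraries summed), and Fgf18 rose by 2.08, with its call past 1 log2 unit lost in that fit (2.07). Gadd45b, a stress-induced gene, rose by 2.29, from 0.598 to 1.33 CPM to 2.25 to 5.79 CPM, and Pmaip1, which promotes apoptosis, by 1.17. Their list of 32 p53 targets and apoptosis genes counted 5 higher and 1 lower (2 and 0 with close libraries summed).

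Of 25 casein, Pim, Hipk and Dyrk kinases, 6 were higher and 7 lower (2 and 4 with close libraries summed, 8 and 4 with total counts as the scale). Of 38 kinases of the Mapk cascades, 6 (15.8%) were higher and 5 (13.2%) lower (3 and 3). Of 56 dual specificity and tyrosine phosphatases, 12 were higher and 4 lower (8 and 1). Of 52 genes of cAMP and protein kinase A signalling, 11 (21.2%) were higher and 8 (15.4%) lower (5 and 6). Of 51 genes of protein phosphatases 1 and 2A, 17 (33.3%) were higher and 9 (17.6%) lower (7 and 6). Of 50 cyclins and Cdks, 11 (22%) were higher and 7 (14%) lower (6 and 3). The shares of the cAMP and cyclin lists lay near those of protein-coding genes, 22.6% higher and 13.7% lower, and the Mapk list had a smaller share higher. Ppp2r2b, a regulatory subunit of protein phosphatase 2A, fell by 2.78, from 70.9 to 117 CPM to 7.10 to 20.2 CPM. Cdk16, an X-linked cyclin-dependent kinase needed for sperm, fell by 1.87, from 79.5 to 113 CPM to 13.6 to 33.0 CPM. Akap12, which anchors protein kinase A, lay between 751 and 2160 CPM in WT and between 285 and 1660 CPM in KO, where KO 1 was the highest and the other 5 reached no more than 419 CPM. It was called lower, and not with close libraries summed (-1.19). Among genes of other families, Lrrc57, a leucine-rich repeat protein, fell by 3.10, from 160 to 232 CPM in WT to 15.2 to 29.4 CPM in KO, and Arl9, a small GTPase, fell by 3.05. Slc18a3, the vesicular acetylcholine transporter, lay between 0.827 and 3.22 CPM in WT and between 0.0534 and 0.211 CPM in KO, near the floor.

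Held genes included abundant mRNAs of RS. The 5242 held genes took 32.7% to 34.8% of the normalized counts in WT and 32.3% to 36.0% in KO. Those with the most counts were Dnah8, the chaperones Hsp90aa1 (2030 to 2430 CPM in WT, 2040 to 2910 CPM in KO) and Hspa2 (1490 to 2170 CPM, 1700 to 2320 CPM), and Nasp, a histone chaperone (1210 to 1810 CPM, 1360 to 2090 CPM). Ubb, a polyubiquitin gene, Fsip2 of the fibrous sheath, Tdrd6 of the chromatoid body and Morf4l1 of a histone acetyltransferase complex followed. Tdrd6 lay between 1240 and 1410 CPM in WT and between 1220 and 1700 CPM in KO, with a 95% interval of the log2 fold change up to 0.36. The tubulins Tuba3a and Tuba3b, near-identical copies between which counts may be split, the nucleolar protein Lyar and Pabpc2, a testis poly(A)-binding protein, were held too. Tcp1, of the chaperonin that folds tubulin, missed the definition, with 2790 to 4920 CPM in WT and 2800 to 3540 CPM in KO. With close libraries summed 2387 genes met it, and with a bound of 0.25 in place of 0.5, 163 did.

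**Figure D5:**
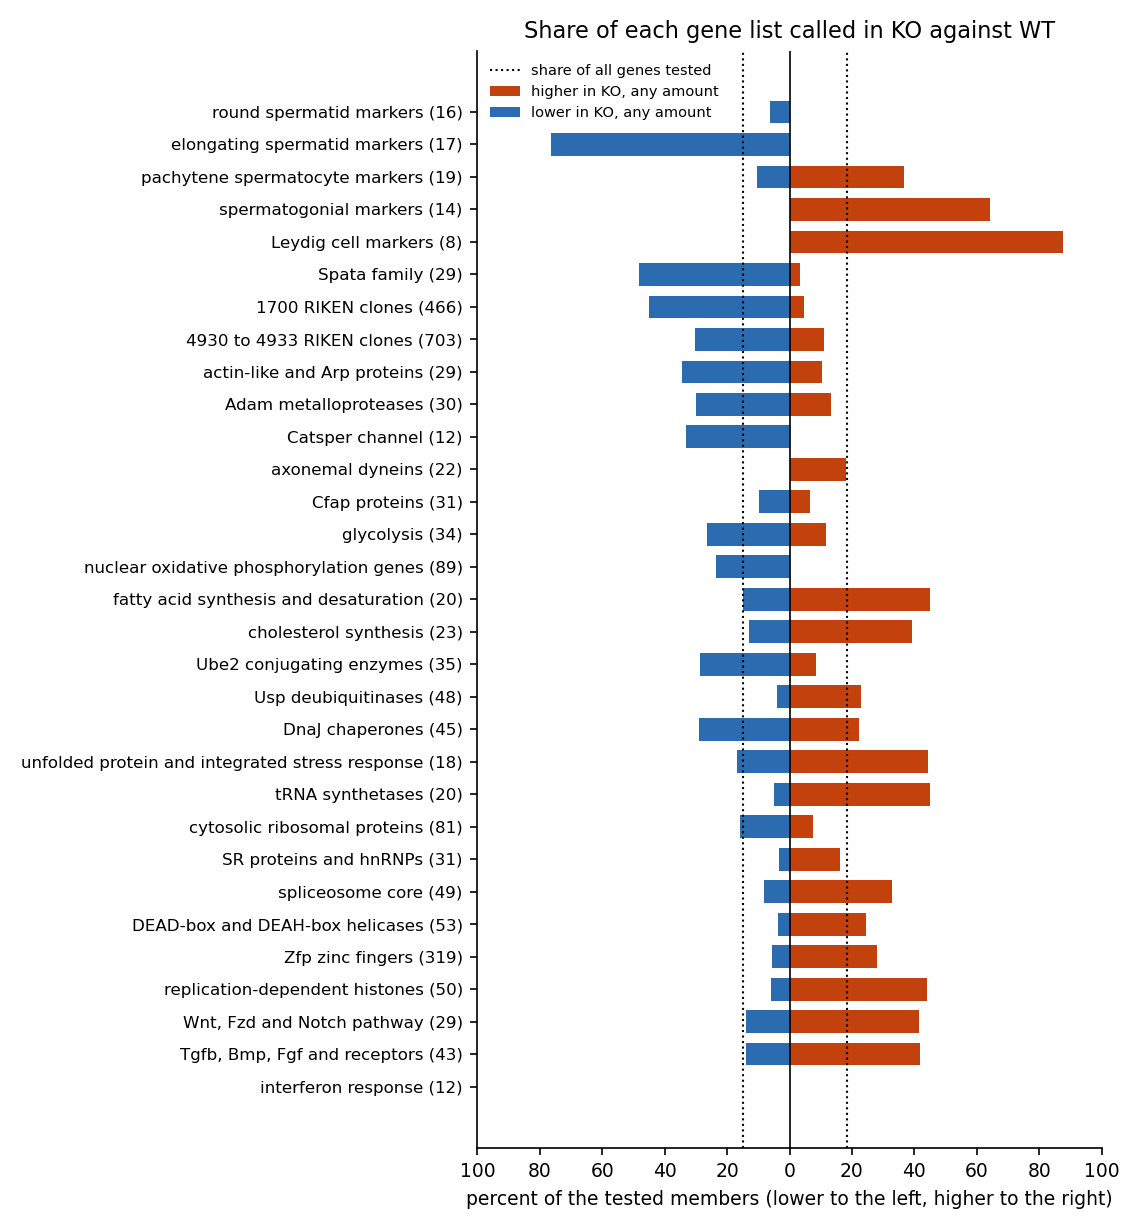
Bars give the percentage of the tested members of each gene list (number in brackets) that were lower in KO by any amount (blue, to the left) or higher (red, to the right), and dotted lines mark the shares of all tested genes, 15% and 18.4%. For protein-coding genes, which make up most lists, the shares were 13.7% and 22.6%. Elongating spermatid markers, Spata genes and 1700 RIKEN clones reach farthest to the left, and Leydig cell and spermatogonial markers farthest to the right.

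Shares of the counts by gene class did not differ between the genotypes past the test. Protein-coding genes took 76.0% to 82.1% of the counts in WT and 67.5% to 85.8% in KO, and lincRNA genes 2.37% to 2.67% and 2.11% to 3.17%. Antisense genes took 0.742% to 0.884% in WT and 0.646% to 0.787% in KO (exact permutation test, two-sided, n = 6 against 6, p = 0.0303, adjusted p = 0.136). The adjusted p of the other measures, the mitochondrial share included, lay between 0.136 and 0.994 over 9 measures, and the smallest p that 6 against 6 libraries can give is 0.00216.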

How the data were processed

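RNA of isolated round spermatids was measured in 18 libraries, of which the 6 WT and 6 KO libraries are compared. The authors deposited raw counts, after trimming (cutadapt 3.4) and alignment to GRCm38 (STAR 2.7.8a), for 54232 genes, made by strand with featureCounts (Subread 2.0.1) on GENCODE M18 with marked duplicates kept. Tool names and versions are from the submitters' processing notes and the file header. Exonic length, the other value used, and gene positions are as deposited in the file. Names, gene classes and exon numbers came from GENCODE M21, which matched 54165 identifiers, and 0 value columns were left without a library.

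Counts were used unchanged in R 4.3.3 with edgeR 4.0.16: filterByExpr left 20089 genes, TMM factors scaled them, and genotype was the only term of the quasi-likelihood fit to the 12 libraries. The worst-case form of glmTreat served for changes beyond 1 log2 unit, and glmQLFTest for any amount. P-values were adjusted by Benjamini-Hochberg over all genes, with a threshold of 0.1. On simulated counts for KO against WT over 19492 genes, glmTreat called 19.4% of genes set to change by 1.5 log2 units, 88.1% at 2 and 100% at 3, with 0 false calls. The test for any amount made 14 false calls there, and 46.1% of the unchanged genes met the definition of held. In this simulation 200 genes were set to change, the others had a change of 0, and the libraries were drawn independently. False calls past 1 log2 unit were therefore unlikely from the start. The rates do not carry over to the real libraries, which hold close pairs and many more called genes. PCR duplicates were not removed by molecular identifiers, so floors cover counting error only.

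Gene lists and the genes named were chosen with earlier results of these data known, and lists were given no test of their own. The named genes were Ddx25, and, leaving out genes the study names, the protein-coding and non-coding genes with the most counts that were lower or higher by more than 1 log2 unit or held, the members of each list with the most counts or the largest changes, and the cell type markers. Some genes and a list that met this rule are not reported here. Shares of counts were compared by exact permutation tests over libraries. Alternatives were DESeq2 1.42.0, 3 other scalings, 2 other filters, fits with all or 17 of the libraries, the replicate number as a block, close libraries summed, other thresholds, and each library left out. Leaving out KO 2 and KO 3 together was added after the data were seen. Promoters are RefSeq's on GRCm38.p6. Python 3.11.15 with matplotlib 3.10.9 drew the figures.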

Additional observations from a re-analysis of the deposited data

Results flagged for a closer look

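Of 314 groups of 6 libraries examined, 14 held 1 library far from the other 5 by Dixon's test at 95%, a test that chance alone passes in about 1 group in 20. In library KO 1, 3 genes lay high among the KO libraries: Odf2 at 3540 CPM (the other KO libraries 795 to 1750), Akap12 at 1660 CPM (285 to 419) and Adam39 at 13.1 CPM (6.50 to 8.82). In KO 1 the Sertoli cell markers also summed to 211 CPM (133 to 159 in the others). In KO 3, the pachytene spermatocyte markers summed to 2690 CPM (2060 to 2290), Sycp2 stood at 603 CPM (366 to 451) and Rps20 at 81.8 CPM (110.0 to 126). In WT 6, the Leydig cell markers summed to 23.8 CPM (up to 14.7 in the other WT libraries), with Cyp17a1 at 6.61 CPM (2.24 to 3.81) and Cyp11a1 at 2.44 CPM (0.539 to 0.985), and Ccnd2 stood at 1.02 CPM (0.551 to 0.719) and Pmaip1 at 1.82 CPM (0.659 to 1.03). Single flags were Ube2c in KO 6 at 62.3 CPM (39.5 to 46.8) and Scd1 in WT 3 at 0.793 CPM (0.235 to 0.443).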

How the results depend on the processing

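With close libraries summed, the genes lower by any amount numbered 1919, those higher 2060 and those held 2387. With at least 10 counts required in every library, 16889 genes were tested and 43 were higher by more than 1 log2 unit, since genes at low levels in WT leave the test. The interval form of glmTreat gave 190 higher and 309 lower. A bound of 0.25 held 163 genes. Scaling by total counts moved the median of all genes from 0.031 to 0.142 and the calls by any amount to 5358 higher and 2286 lower, from 3695 and 3018, and turned the sign of the medians of several lists near 0, such as DnaJ chaperones (-0.101 to 0.013) and testis transcription factors (-0.106 to 0.008). Leaving out each library in turn gave 211 to 272 genes lower and 101 to 147 higher by more than 1 log2 unit, 2657 to 3288 lower and 3129 to 3818 higher by any amount, and 4338 to 5392 held. No share of counts crossed the threshold in any of its alternatives. Libraries with the same number did not deviate together as a rule (correlations of deviations -0.272 to 0.323 over 20089 genes). Only pair 1, at 0.323, correlated best with its own number. The libraries were therefore not paired by number in the main fit, although these correlations cannot exclude that some were prepared together. With the replicate number as a block, 231 genes were lower and 114 higher by more than 1 log2 unit, 2848 and 3301 by any amount, and 4663 held. Settings not listed left each count within 1.5 times its value. DESeq2 gave 256 lower and 125 higher by more than 1 log2 unit, and the fit to all 18 libraries 239 and 126. Of the 351 genes called past 1 log2 unit, 233 were also called in the same direction with close libraries summed. None of the named genes that were called changed direction in any edgeR alternative. Without KO 2 and KO 3 the calls past 1 log2 unit of Arl4a, Mex3d, Cyp17a1, Cyp11a1, Adgra3, Zfp990, Zfp7 and Fgf18 and the call of Akap12 were lost. Depth limits the lowest decile of genes by level, of which 0 of 2009 could be held.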
